A study of Solanum lycopersicum with 15 samples.

Results

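Ammonium given together with iron was compared with iron given alone in tomato (Solanum lycopersicum) roots, across all genes with at least 1 FPKM in 3 or more of the 15 libraries. FPKM, the unit of the deposited values, counts sequenced fragments per unit of transcript length and of library size. That condition kept 18889 of the 34075 genes in the deposited table. Roots labelled +Fe+A were resupplied with iron and ammonium (3 libraries), and roots labelled +Fe-N were resupplied with iron and had no nitrogen (3 libraries). The 9 remaining libraries came from roots given iron with nitrate (+Fe+Ni), roots given iron with urea (+Fe+U) and control roots with neither iron nor nitrogen (-Fe-N), 3 each. All 5 regimes were measured as polyadenylated RNA of whole root tissue, and the sources used here do not state amounts, times, cultivar or plant age. Nothing in the labels tells whether replicates of 1 regime were separate plants or cultures, so the p-values measure only the spread between these libraries, which may be technical.

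Ammonium enters root cells through transporters of the AMT family and is built into glutamine and glutamate by glutamine synthetase and glutamate synthase, largely in the root itself. Nitrate must first be reduced, and urea is split by urease to give ammonium inside the plant. Ammonium uptake goes with proton release that acidifies the root surface, and tomato takes up iron by acidifying its surroundings, reducing ferric iron and importing the ferrous form. The study's title asks how early root responses to iron depend on the nitrogen form.

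Genes are given by identifier. The deposited table pairs none of its 34075 identifiers with a name or product, and 0 of them matched the tomato gene table at hand. No role is given to any gene below, gene lists by pathway were not counted, and the root label was not checked against markers. The digits after Solyc are the chromosome, and coordinates were not used here. In whole roots, a lower level cannot be told apart from fewer cells of the type that makes the transcript.

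FPKM totals were 563983 to 589451 with ammonium and 551746 to 587391 with iron alone, and 17448 to 17579 against 17455 to 18082 genes reached 1 FPKM. The files hold no read counts. The steps between low FPKM values put the depth at 0.913 to 1.02 with ammonium and 0.937 to 1.28 with iron alone, relative to the geometric mean of all 15 libraries, and the deepest was iron-alone replicate 1. In a principal component analysis of these 6 libraries the first component held 39.3% of the variance, with ammonium libraries at 19.4 to 35.4 and iron-alone libraries at -33.0 to -25.1. The second component, with 20.4%, spread the iron-alone libraries, at 3.59, 35.6 and -37.4 in replicates 1, 2 and 3, more than the ammonium libraries, at 7.02, -0.44 and -8.37.

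Ammonium changed 2621 genes against iron alone, 13.9% of those tested, at an adjusted p under 0.05. Of these, 1189 rose (6.29% of those tested) and 1432 fell (7.58%). The FPKM values of the regimes did not overlap at all in 2457 genes that were higher with ammonium (13.0%) and 3231 that were lower (17.1%). Groups of 3 libraries can also separate fully by chance, so these 2 counts are not a test. Most changes were small. The median change was a log2 value of 0.52 among the rising genes and -0.62 among the falling genes, and 1358 of the called genes, 51.8%, changed by less than 1.5-fold. At least 2-fold changes were found in 169 rising genes (0.895%) and 228 falling genes (1.21%), at least 4-fold changes in 20 and 24, and at least 8-fold changes in 5 and 3. Folds and log2 changes are on the log2(FPKM + 1) scale unless said otherwise, which understates the change of low genes.

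The split between rising and falling genes depended on scaling. With size factors, a scaling that puts the median gene near no change, 1469 rose and 1236 fell, and the median gene, at a log2 change of -0.033 as deposited, moved to -0.0025. The counts also rested on single libraries. Without ammonium replicate 1, 1618 genes changed (688 rising and 930 falling), and without ammonium replicate 3, 1671 (812 rising and 859 falling). Without iron-alone replicate 2, 751 genes rose and 1195 fell. With only these 6 libraries in the fit, 1318 genes changed.

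**Figure D1:**
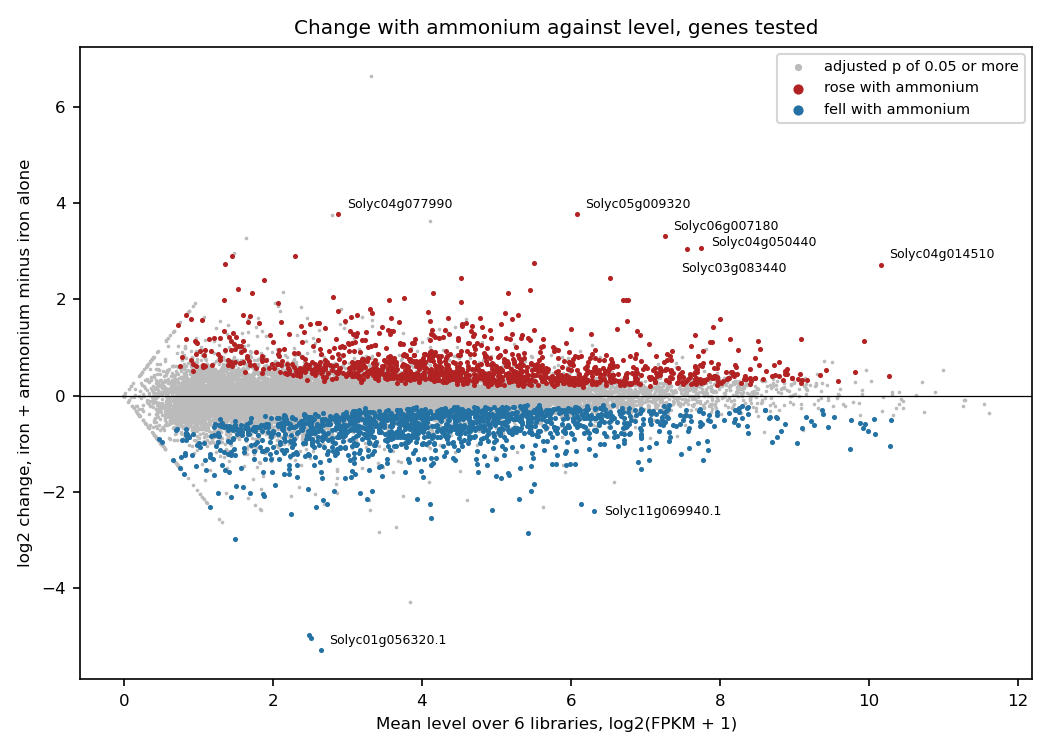
Each point is a gene tested, with its mean level over the 6 libraries as log2(FPKM + 1) on the horizontal axis and its log2 change, ammonium minus iron alone, on the vertical axis. Red points rose and blue points fell at an adjusted p under 0.05, and grey points were not called. Gene labels leave out the suffix ITAG4.0. Solyc05g009320.ITAG4.0 at 3.77 and Solyc04g077990.ITAG4.0 at 3.76 are the highest red points, and the grey point at 6.64 is a gene that did not pass the test.

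Abundant genes were called more often. Of 2284 genes with a mean over 50 FPKM in the 15 libraries, 674 were called (29.5%), 375 rising and 299 falling. Of 10356 genes at 5 to 50 FPKM, 1572 were called (15.2%), 685 rising and 887 falling, and of 6249 genes under 5 FPKM, 375 (6.00%), 129 rising and 246 falling. Called genes with at least 2-fold changes numbered 39 rising and 34 falling over 50 FPKM, 92 and 118 at 5 to 50 FPKM, and 38 and 76 under 5 FPKM. The log2 scale used understates the change of low genes, and why they were called less often was not tested. These shares therefore do not show that ammonium acts mainly on abundant genes. Genes that rose at least 2-fold held 2.72%, 2.40% and 3.20% of the FPKM total in ammonium replicates 1, 2 and 3, against 0.866%, 0.834% and 0.883% in the iron-alone libraries. Genes that fell at least 2-fold held 0.743%, 0.834% and 0.727% with ammonium, against 1.80%, 1.94% and 2.02% with iron alone. These genes were chosen from the same libraries, so the shares describe their size and are not a test.

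Solyc05g009320.ITAG4.0 was among the largest rises. It stood at 255, 221 and 272 FPKM in ammonium replicates 1, 2 and 3, against 20.0, 17.2 and 15.0 FPKM with iron alone. The groups were far apart and the replicates close, with means of 249 ± 26.3 and 17.4 ± 2.48 FPKM (SD, n = 3 each), a 14.3-fold ratio (log2 change 3.77, standard error 0.14, adjusted p = 1.4e-08). Its level was 147 ± 7.88 FPKM with urea, 23.5 ± 3.63 with nitrate and 21.3 ± 3.96 in control roots (SD, n = 3 each).

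Solyc04g077990.ITAG4.0 rose nearly as far on the log scale at a much lower level. It stood at 30.8, 22.6 and 25.6 FPKM with ammonium, against 0.0517, 1.03 and 2.74 FPKM with iron alone. The ammonium libraries agreed closely while the iron-alone libraries, all low, differed among themselves (log2 change 3.76, standard error 0.38, adjusted p = 4.7e-05). With a pseudocount of 0.1 in place of 1 its log2 change was 5.06 (adjusted p = 0.004, over a range of 2.7e-05 to 0.0059 in 15 alternatives). With urea it was at 7.58, 7.65 and 10.7 FPKM, and it was at 1.12 FPKM or less in each nitrate and control library.

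Solyc06g007180.ITAG4.0 stood at 458, 587 and 417 FPKM with ammonium, against 48.4, 54.7 and 41.2 FPKM with iron alone. The ratio of the means was 10.1 (log2 change 3.31, standard error 0.20, adjusted p = 7.6e-07). Nitrate libraries had the lowest levels of this gene, at 16.5, 14.2 and 11.4 FPKM, and urea libraries stood in between at 124, 189 and 200 FPKM.

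A further 3 abundant genes rose together with little spread. Solyc04g050440.ITAG4.0 stood at 614, 575 and 671 FPKM with ammonium, against 61.4, 81.7 and 78.5 FPKM with iron alone (log2 change 3.06, standard error 0.13, adjusted p = 2.3e-08). Solyc03g083440.ITAG4.0 stood at 513, 511 and 599 FPKM with ammonium, against 72.1, 60.4 and 62.7 FPKM with iron alone (log2 change 3.04, standard error 0.13, adjusted p = 1.9e-08). In both genes the groups were far apart and the replicates close. Solyc04g014510.ITAG4.0 was the most abundant of the genes that rose at least 2-fold, at 3055, 2576 and 3228 FPKM with ammonium, against 502, 404 and 436 FPKM with iron alone (log2 change 2.72, standard error 0.11, adjusted p = 1.9e-08). Ranked by level among all genes, it held place 2, 2 and 3 in the ammonium libraries, with 0.518%, 0.454% and 0.572% of the FPKM totals, and place 107, 142 and 126 in the iron-alone libraries.

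Solyc08g065540.ITAG4.0 was raised to 107, 112 and 131 FPKM with ammonium, against 14.7, 18.0 and 16.9 FPKM with iron alone (log2 change 2.74, standard error 0.15, adjusted p = 4.8e-07). Control roots held more of it than roots given iron alone, at 43.6, 49.2 and 38.3 FPKM, and still less than ammonium roots (log2 difference 1.40, ammonium minus control, adjusted p = 5.3e-05). Solyc08g005610.ITAG4.0 stood at 50.4, 42.5 and 68.9 FPKM with ammonium, against 6.79, 8.54 and 12.0 FPKM with iron alone (log2 change 2.45, standard error 0.33, adjusted p = 0.00044). Its control libraries, at 35.0, 55.0 and 21.1 FPKM, overlapped the ammonium libraries (adjusted p = 0.23), and its nitrate libraries were higher than either, at 114, 110 and 152 FPKM.

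Solyc07g049560.ITAG4.0 varied more among replicates. It stood at 236, 131 and 320 FPKM with ammonium, against 63.0, 43.1 and 21.2 FPKM with iron alone (log2 change 2.44, standard error 0.49, adjusted p = 0.0051). The groups did not overlap, but both spread widely, and nitrate and urea libraries, at 68.0 to 164 FPKM and 115 to 143 FPKM, overlapped the lower ammonium library. Solyc11g011590.ITAG4.0 was tight with ammonium at 7.46, 7.29 and 7.79 FPKM and listed at 0, 0.718 and 1.40 FPKM in the iron-alone libraries (adjusted p = 0.00031).

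The other named rises started from values listed at 0. Solyc12g039170.1.ITAG4.0 stood at 7.70, 7.62 and 4.63 FPKM with ammonium and was listed at 0 in all 3 iron-alone libraries (adjusted p = 0.0076), but control roots held it at 4.37, 5.19 and 5.89 FPKM, a level from which ammonium did not differ by the test (adjusted p = 0.79). Solyc07g054790.1.ITAG4.0 stood at 18.3, 1.73 and 4.51 FPKM with ammonium and was listed at 0 in the 3 iron-alone and the 3 control libraries (adjusted p = 0.0036). With urea it was at 12.7, 15.0 and 9.22 FPKM. Its call was lost when only the 6 libraries compared were fitted (adjusted p = 0.053, over a range of 0.00057 to 0.053 in 14 alternatives).

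**Figure D2:**
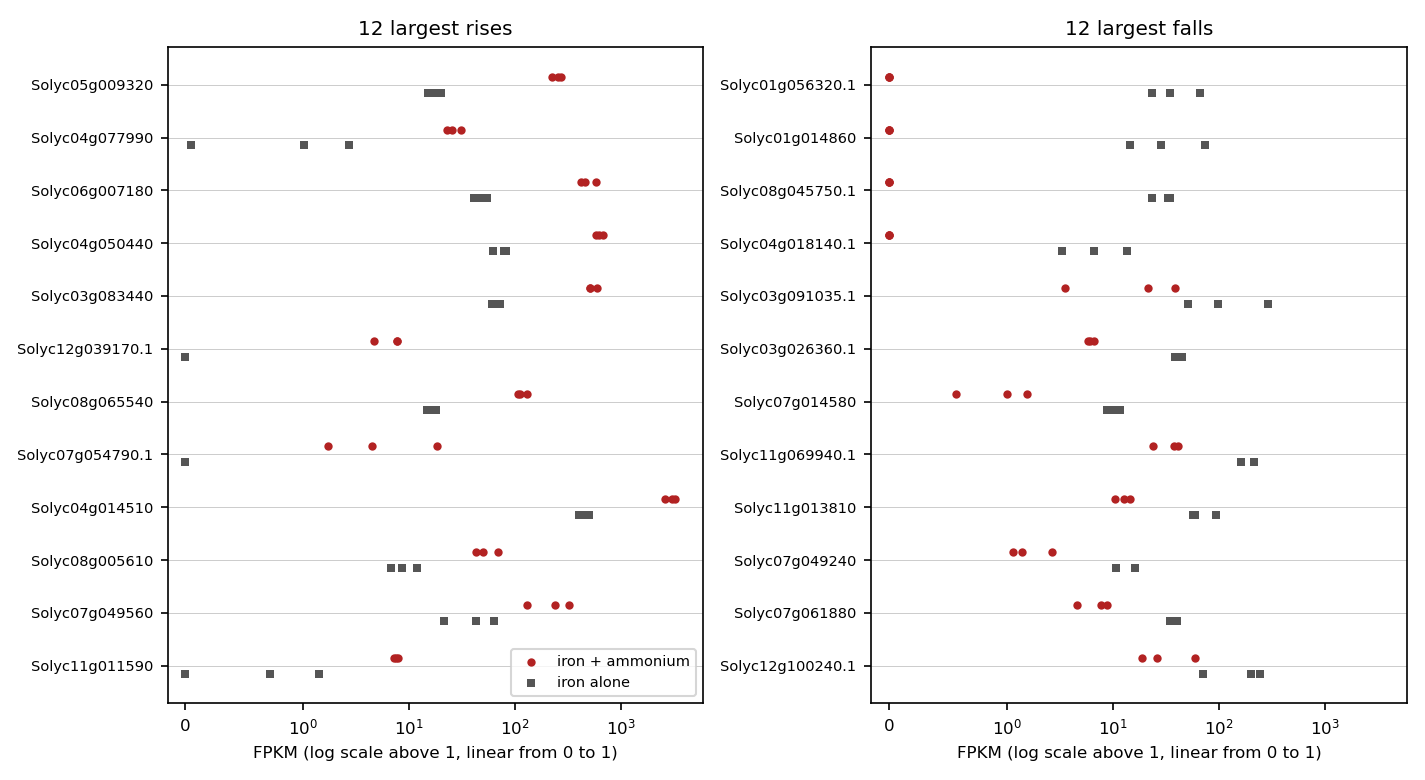
FPKM in each library for the 12 genes with the largest rise (left) and the 12 with the largest fall (right), on a horizontal axis that is logarithmic above 1 and linear from 0 to 1. Red circles are the 3 ammonium libraries and grey squares the 3 iron-alone libraries, and labels leave out the suffix ITAG4.0. The circles of Solyc05g009320.ITAG4.0, at 221 to 272 FPKM, lie clear of its squares at 15.0 to 20.0, while the circles of 4 falling genes lie at 0.

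Among the falling genes with measured values in every library, Solyc03g026360.1.ITAG4.0 stood at 5.81, 6.69 and 6.10 FPKM with ammonium, against 38.7, 38.7 and 45.7 FPKM with iron alone. Replicates were close on both sides, and the mean with iron alone was 6.62 times that with ammonium (log2 change -2.54, standard error 0.24, adjusted p = 3.3e-05). Control roots held the most, at 60.1, 59.4 and 69.0 FPKM, and nitrate and urea roots lay between, at 15.3 ± 5.31 and 14.7 ± 4.81 FPKM (SD, n = 3 each).

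Solyc11g069940.1.ITAG4.0 fell to 24.1, 38.4 and 41.1 FPKM with ammonium, against 164, 164 and 218 FPKM with iron alone (log2 change -2.39, standard error 0.18, adjusted p = 7e-06). Levels with nitrate and urea were close to those with ammonium, at 51.1 ± 5.73 and 43.1 ± 6.81 FPKM (SD, n = 3 each). The differences of ammonium from them missed the threshold (log2 difference -0.58, adjusted p = 0.072 for nitrate, and -0.34, adjusted p = 0.25 for urea), with standard errors of 0.18.

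Solyc11g013810.ITAG4.0 stood at 10.5, 14.6 and 12.7 FPKM with ammonium, against 60.2, 57.0 and 95.3 FPKM with iron alone (log2 change -2.37, standard error 0.26, adjusted p = 9.5e-05). Nitrate roots held it at 301, 294 and 382 FPKM, the highest of the 5 regimes, and control roots at 121, 116 and 116 FPKM. Ammonium libraries thus lay below every library of the other regimes, the lowest of which was a urea library at 17.0 FPKM.

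Solyc07g061880.ITAG4.0 stood at 7.82, 4.67 and 8.83 FPKM with ammonium, against 34.8, 35.0 and 41.0 FPKM with iron alone (log2 change -2.26, standard error 0.24, adjusted p = 7.6e-05). Urea libraries, at 6.08, 5.40 and 11.3 FPKM, overlapped the ammonium libraries, whereas nitrate libraries, at 39.3, 30.5 and 46.0 FPKM, overlapped those of iron alone. Low genes also fell. Solyc07g014580.ITAG4.0 stood at 1.55, 0.574 and 1.01 FPKM with ammonium, against 11.8, 9.92 and 8.84 FPKM with iron alone (log2 change -2.47, adjusted p = 0.00017). Solyc07g049240.ITAG4.0 stood at 1.41, 2.71 and 1.16 FPKM with ammonium, against 10.7, 10.9 and 16.2 FPKM with iron alone (log2 change -2.32, adjusted p = 0.00028).

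A pair of falling genes had wide replicate spread. Solyc03g091035.1.ITAG4.0 stood at 38.8, 3.56 and 21.4 FPKM with ammonium, against 97.9, 51.8 and 295 FPKM with iron alone (log2 change -2.86, standard error 0.87, adjusted p = 0.044). Solyc12g100240.1.ITAG4.0 stood at 26.2, 60.6 and 19.1 FPKM with ammonium, against 204, 246 and 70.8 FPKM with iron alone (log2 change -2.25, standard error 0.67, adjusted p = 0.04). Each lost its call in 7 of 15 alternatives. The first lost it without ammonium replicate 2 or 3 (adjusted p = 0.15 and 0.076) and when iron-alone replicate 1 or 3 was left out (0.082 and 0.16), and the second when ammonium replicate 1 or 3 (0.12 and 0.14) was missing, as when iron-alone replicate 1 (0.11) or 2 (0.13) was. Their adjusted p ranged over all alternatives from 0.028 to 0.16 and from 0.024 to 0.14.

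The largest falls by fitted change were of genes listed at 0 in all 3 ammonium libraries. In the iron-alone libraries Solyc01g056320.1.ITAG4.0 stood at 23.4, 35.1 and 67.2 FPKM (adjusted p = 0.011), Solyc01g014860.ITAG4.0 at 28.9, 14.6 and 74.1 FPKM (adjusted p = 0.022) and Solyc08g045750.1.ITAG4.0 at 23.4, 35.1 and 33.6 FPKM (adjusted p = 0.035). Outside iron alone, Solyc01g056320.1.ITAG4.0 was above 0 only in urea replicate 1 (40.7 FPKM) and control replicate 2 (10.7 FPKM). It thus met the filter only through the iron-alone libraries, where it was high, and its p-value is not independent support for the fall. Of the 9 nitrate, urea and control libraries, some held each of the 3 genes and others listed it at 0. Solyc08g045750.1.ITAG4.0 was at 11.4 and 42.9 FPKM in control replicates 1 and 2. The differences of ammonium from control missed the threshold (adjusted p = 0.54, 0.6 and 0.16). Their standard errors on the log2 scale, 1.21, 1.31 and 1.43, are too wide to show that ammonium and control roots were alike.

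These values came in steps. Solyc01g056320.1.ITAG4.0 and Solyc08g045750.1.ITAG4.0 had the same FPKM in iron-alone replicates 1 and 2, and in replicate 3 the first had exactly 2 times the value of the other. In control replicate 2 the first stood at 10.7 FPKM, which was 0.25 of the value of the other. The smallest value above 0 of either gene in any library was 10.7 FPKM, and no fold is given for them. Values in such steps can rest on few fragments even at the FPKM listed here, and fragment numbers were not available. These falls therefore cannot be read as moderately expressed genes being switched off. The call of Solyc08g045750.1.ITAG4.0 was lost without any 1 of the 6 libraries (adjusted p = 0.069 to 0.089) and without the filter on low values (0.055), and that of Solyc01g014860.ITAG4.0 without ammonium replicate 1 (0.063) or 3 (0.06), as without iron-alone replicate 1 (0.052) or 3 (0.076).

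Solyc04g018140.1.ITAG4.0 was listed at 0 in the 3 ammonium libraries as well, and above 0 in every one of the other 12. Its iron-alone libraries held 3.31, 13.8 and 6.65 FPKM (adjusted p = 0.0065), and it lay between 1.70 and 12.1 FPKM in nitrate, urea and control libraries. In all, 71 tested genes were listed at 0 in all ammonium libraries but not in all iron-alone libraries. Of them, 8 were called, all falling (11.3%, beside 7.58% falling and 13.9% called either way over all genes tested). In the reverse direction 45 genes were listed at 0 in all iron-alone libraries but not in all ammonium libraries. Of these, 4 were called, all rising (8.89%, beside 6.29% rising over all genes tested). Every call was of a gene above 0 in all 3 libraries of the opposite group (8 of 13 and 4 of 5). Such genes can pass the filter through those 3 libraries alone, so these shares are not independent support.

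Ammonium was also tested against the mean of nitrate and urea, both given with iron. A gene could be called there by differing from only 1 of these forms, and whether or not it changed against iron alone. The calls are therefore not a list of genes that set ammonium apart from nitrogen supply in general. The iron-alone libraries enter that comparison through the shared estimate of the spread alone, and its ammonium libraries are those of the main one. It called 748 genes, 3.96% of those tested, 446 higher and 302 lower with ammonium, and with size factors 318 higher and 405 lower. Leaving out ammonium replicate 1, 2 or 3 brought the count to 274, 400 or 392, and 370 genes were called with only these 9 libraries in the fit. Against single regimes, ammonium differed from nitrate in 1333 genes (7.06%), from urea in 2088 (11.1%) and from control in 3934 (20.8%).

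Solyc06g007180.ITAG4.0 stood far above the mean of the other forms, at 3.27 ± 0.17 (log2 difference ± standard error, adjusted p = 8.4e-07). Ammonium exceeded nitrate by 5.02 and urea by 1.52 on the log2 scale (adjusted p = 2.1e-08 and 0.00033). Solyc04g077990.ITAG4.0 stood at 2.91 ± 0.33 (adjusted p = 0.00036), and Solyc05g009320.ITAG4.0 at 2.06 ± 0.12 (adjusted p = 2.6e-06). Each of these 3 genes had the order ammonium, urea, nitrate, and ammonium differed from urea by the test in each (adjusted p = 0.021 for Solyc04g077990.ITAG4.0 and 0.0044 for Solyc05g009320.ITAG4.0).

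Solyc08g065540.ITAG4.0 differed from the other forms by 2.16 ± 0.13 (adjusted p = 2.7e-06), with 117 ± 12.6 FPKM in ammonium roots, 22.0 ± 2.78 in nitrate roots and 29.6 ± 6.5 in urea roots (SD, n = 3 each). Solyc04g050440.ITAG4.0 stood at 620 ± 48.4 FPKM with ammonium, 269 ± 17.0 with nitrate and 270 ± 41.8 with urea (SD, n = 3 each), so that nitrate and urea roots had nearly the same mean. Its difference from their mean was 1.20 ± 0.12 (adjusted p = 9e-05). Solyc03g083440.ITAG4.0 differed from the mean of the other forms by 0.65 ± 0.11 (adjusted p = 0.0059), from nitrate by 1.02 (adjusted p = 0.00026) and from urea by 0.29 with a standard error of 0.13, which missed the threshold (adjusted p = 0.17).

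Of the named falls, Solyc11g013810.ITAG4.0 stood well below the other forms, at -2.82 ± 0.22 (adjusted p = 2.5e-05). It was lower with ammonium than with nitrate or urea (log2 differences -4.59 and -1.06, adjusted p = 4.1e-07 and 0.019). Solyc04g018140.1.ITAG4.0, Solyc07g049240.ITAG4.0, Solyc07g014580.ITAG4.0, Solyc03g026360.1.ITAG4.0 and Solyc07g061880.ITAG4.0 were also lower than the mean of nitrate and urea (adjusted p = 0.019, 0.012, 0.025, 0.012 and 0.0074). Against urea alone the difference missed the threshold for Solyc07g014580.ITAG4.0 (log2 difference -0.49, standard error 0.29, adjusted p = 0.32) and Solyc07g061880.ITAG4.0 (-0.06, standard error 0.24, adjusted p = 0.91), while both were lower than with nitrate (adjusted p = 0.0018 and 5.2e-05). Each of the first 4 calls was lost without at least 1 ammonium replicate, with adjusted p reaching 0.078, 0.065, 0.1 and 0.062. For Solyc07g061880.ITAG4.0 the alternatives to this comparison were not examined.

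**Figure D3:**
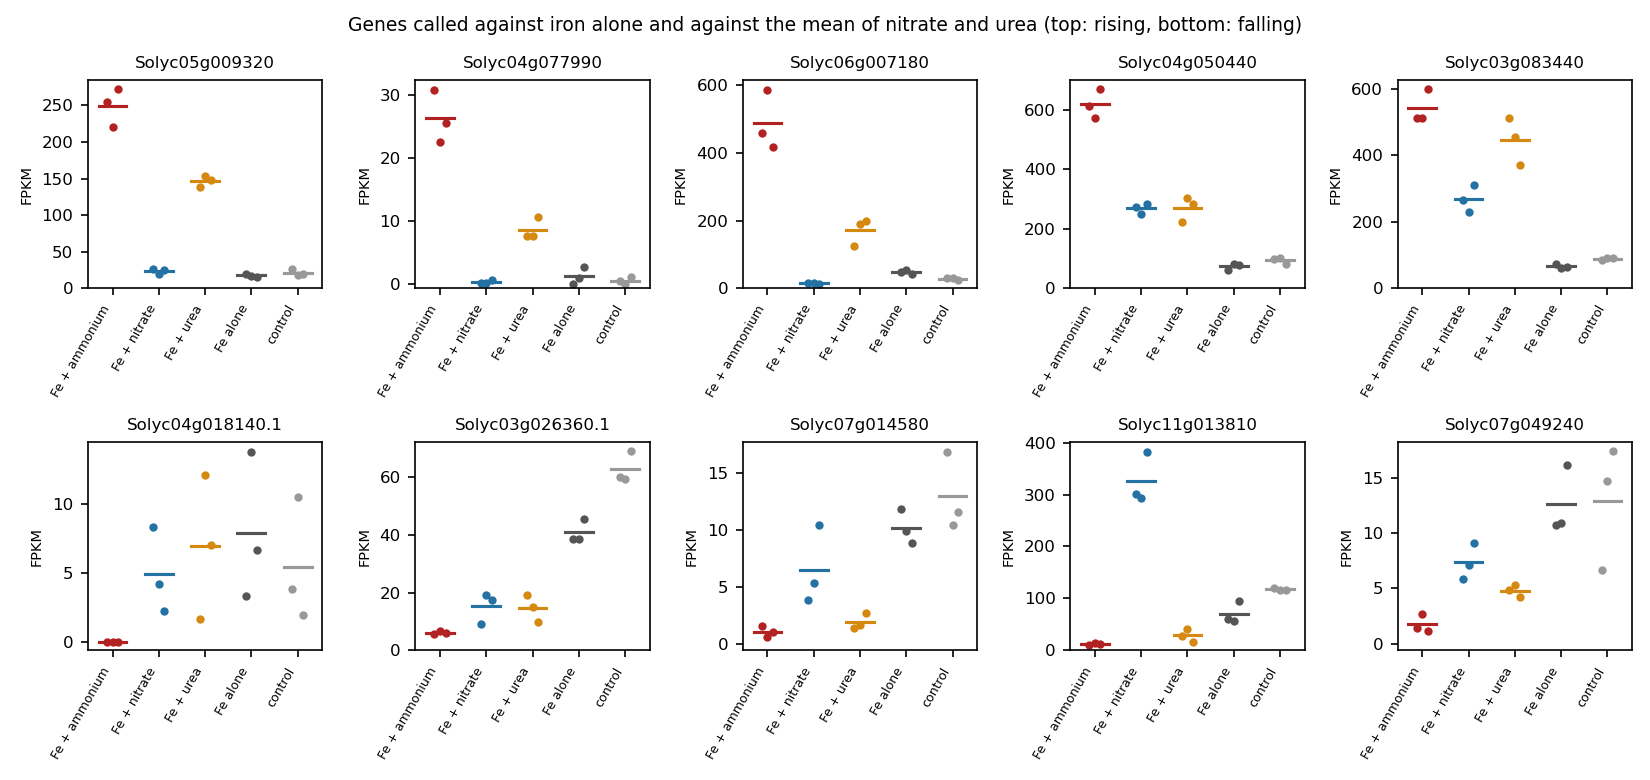
FPKM by library for 5 genes that rose (top) and 5 that fell (bottom) relative to iron alone and differed likewise from the mean of nitrate and urea. The horizontal axis gives iron with ammonium, nitrate or urea, iron alone and control, points are libraries, bars are group means, each vertical axis has its own scale, and labels leave out the suffix ITAG4.0. Solyc06g007180.ITAG4.0 is at 417 to 587 FPKM with ammonium and at 200 or less elsewhere, and Solyc11g013810.ITAG4.0 is lowest with ammonium and highest with nitrate.

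Beyond the 12 largest changes each way, genes were named by smallest p-value, a choice that leaves smaller changes and favours little replicate spread. Solyc03g083460.ITAG4.0 rose to 22.4, 25.0 and 27.3 FPKM with ammonium, against 11.0, 11.2 and 9.77 FPKM with iron alone (log2 change 1.15, standard error 0.08, adjusted p = 5.7e-06). By identifier it lies close to Solyc03g083440.ITAG4.0, which also rose. Solyc06g009140.ITAG4.0 stood at 422, 404 and 525 FPKM with ammonium, against 138, 145 and 158 FPKM with iron alone (log2 change 1.60, standard error 0.12, adjusted p = 7.6e-06). Nitrate roots held more still, at 742, 689 and 868 FPKM (log2 difference -0.77, ammonium minus nitrate, adjusted p = 0.0016). Its control level was 348 ± 26.7 FPKM (SD, n = 3), and the difference of ammonium from control was 0.36 with a standard error of 0.12 (adjusted p = 0.053).

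In the falling direction Solyc09g074890.1.ITAG4.0 stood at 586, 620 and 539 FPKM with ammonium, against 1156, 1322 and 1317 FPKM with iron alone (log2 change -1.12, standard error 0.08, adjusted p = 5.7e-06). It was lower with ammonium than in all 4 other regimes (adjusted p = 0.00014 against nitrate, 0.0024 against urea and 7.7e-07 against control). Solyc06g062950.1.ITAG4.0 stood at 62.7, 58.5 and 53.9 FPKM with ammonium, against 118, 112 and 124 FPKM with iron alone (log2 change -1.01, standard error 0.07, adjusted p = 6.9e-06). Solyc02g079870.ITAG4.0 stood at 46.6, 59.1 and 48.9 FPKM with ammonium, against 129, 114 and 126 FPKM with iron alone (log2 change -1.24, standard error 0.09, adjusted p = 7e-06). Replicates of each of these genes differed far less than the groups, which their choice by smallest p-value favoured.

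Abundant genes with at least 2-fold changes included 2 more that rose. Solyc05g014470.ITAG4.0 stood at 1560, 1193 and 1644 FPKM with ammonium, against 706, 632 and 650 FPKM with iron alone (log2 change 1.13, standard error 0.14, adjusted p = 0.00021). Solyc09g009260.ITAG4.0 stood at 890, 694 and 890 FPKM with ammonium, against 377, 346 and 360 FPKM with iron alone (log2 change 1.18, standard error 0.12, adjusted p = 6.9e-05). Urea roots held both at similar or higher levels, at 1609 to 2255 FPKM and 707 to 921 FPKM.

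Among abundant falling genes Solyc08g081190.ITAG4.0 stood at 883, 927 and 808 FPKM with ammonium, against 1705, 1736 and 1947 FPKM with iron alone (log2 change -1.04, standard error 0.11, adjusted p = 8.2e-05). Solyc04g076880.ITAG4.0 stood at 168, 178 and 124 FPKM with ammonium, against 361, 332 and 324 FPKM with iron alone (log2 change -1.12, standard error 0.11, adjusted p = 4.5e-05). For both, the difference of ammonium from urea missed the threshold (log2 differences -0.16 and -0.01, standard errors 0.11 each, adjusted p = 0.4 and 0.97), while nitrate roots held more than ammonium roots (adjusted p = 0.00064 and 7.5e-06).

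Some genes with neighbouring identifiers changed together. There were 22 runs of at least 3 consecutive tested identifiers that were all called in the same direction with at least 1 member changed 2-fold, and the 6 longest are described. How often such runs arise without ammonium was not tested, and neighbouring genes can share reads where they are near-identical copies, which FPKM values do not resolve.

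On chromosome 4, Solyc04g008940.ITAG4.0, Solyc04g008950.ITAG4.0, Solyc04g008960.ITAG4.0 and Solyc04g008970.ITAG4.0 all rose at least 2-fold (log2 changes 1.60, 1.36, 1.21 and 1.33, adjusted p = 6.9e-06, 0.00019, 0.00074 and 0.0089). Solyc04g008940.ITAG4.0 stood at 37.2, 31.3 and 35.2 FPKM with ammonium, against 10.1, 11.3 and 10.7 FPKM with iron alone, and Solyc04g008970.ITAG4.0 was the lowest, at 3.13, 2.71 and 3.32 FPKM with ammonium, against 0.624, 0.362 and 0.878 FPKM with iron alone. All 4 were also higher with ammonium than the mean of nitrate and urea (log2 differences 1.44, 1.04, 1.18 and 1.13, adjusted p = 8.5e-06, 0.0016, 0.0012 and 0.025) and higher than control (adjusted p = 5.8e-07, 7.6e-05, 0.00049 and 0.011).

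On chromosome 7, 5 abundant genes from Solyc07g008980.ITAG4.0 to Solyc07g009050.ITAG4.0 rose, with log2 changes of 0.45 to 1.25. Solyc07g008980.ITAG4.0 stood at 309, 275 and 365 FPKM with ammonium, against 130, 109 and 160 FPKM with iron alone (adjusted p = 0.001). In control roots it was higher still, at 578, 498 and 415 FPKM, and all 5 genes were lower with ammonium than in control (log2 differences -0.64, -0.60, -0.54, -0.43 and -0.42, adjusted p = 0.03, 0.0092, 0.027, 0.022 and 0.033). None of the 5 differed between ammonium and the mean of nitrate and urea by the test (adjusted p = 0.14 to 0.95). Against iron alone, Solyc07g009020.ITAG4.0 no longer passed the test when ammonium replicate 1, ammonium replicate 3 or iron-alone replicate 2 was left out (adjusted p = 0.058, 0.082 and 0.082), and the same held for Solyc07g009040.ITAG4.0 (0.078, 0.1 and 0.096). Both were also lost with only the 6 libraries compared (0.064 and 0.096).

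On chromosome 1, 5 genes from Solyc01g095810.ITAG4.0 to Solyc01g095860.ITAG4.0 rose. Solyc01g095810.ITAG4.0 stood at 27.3, 23.6 and 29.4 FPKM with ammonium, against 11.2, 8.12 and 12.6 FPKM with iron alone (log2 change 1.27, standard error 0.21, adjusted p = 0.0019). Solyc01g095820.2.ITAG4.0 stood at 51.2, 42.8 and 42.1 FPKM with ammonium, against 16.5, 20.7 and 20.8 FPKM with iron alone (log2 change 1.19, standard error 0.16, adjusted p = 0.00034). Urea libraries of these genes, at 8.24 to 12.6 FPKM and 14.5 to 17.4 FPKM, lay far below the ammonium libraries (adjusted p = 0.0018 and 9.5e-05). The differences of ammonium from nitrate missed the threshold (adjusted p = 0.78 and 0.073), as did those from control (adjusted p = 0.062 and 0.83), where the means were 41.2 and 47.2 FPKM. Solyc01g095830.ITAG4.0 rose less, at a log2 change of 0.75 (adjusted p = 0.0031). Levels of Solyc01g095850.1.ITAG4.0 were low, at 1.41, 1.61 and 1.95 FPKM with ammonium, against 0.609, 0.487 and 0.275 FPKM with iron alone. The calls of Solyc01g095850.1.ITAG4.0 and Solyc01g095860.ITAG4.0 were each lost without any 1 of the 6 libraries (adjusted p = 0.056 to 0.12 and 0.055 to 0.14).

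Falling runs lay on chromosomes 2 and 3. Solyc03g093130.ITAG4.0 stood at 3.42, 4.20 and 3.93 FPKM with ammonium, against 10.9, 11.8 and 18.5 FPKM with iron alone (log2 change -1.57, standard error 0.24, adjusted p = 0.001). Its neighbours Solyc03g093080.ITAG4.0, Solyc03g093110.3.ITAG4.0 and Solyc03g093120.5.ITAG4.0 also fell (log2 changes -1.53, -1.55 and -0.91, adjusted p = 0.028, 0.0079 and 0.048). All 4 were highest in control roots, at 26.2 to 59.4 FPKM for Solyc03g093130.ITAG4.0. A pair of them was low: Solyc03g093110.3.ITAG4.0 stood at 0.573, 0.659 and 0.277 FPKM with ammonium, against 2.02, 3.41 and 5.26 FPKM with iron alone. For Solyc03g093120.5.ITAG4.0 the values were 0.107, 0.401 and 0.422 FPKM, against 1.14, 1.1 and 2.29 FPKM with iron alone. The call of Solyc03g093120.5.ITAG4.0 was lost in 12 of 14 alternatives, the replicate block among them (adjusted p = 0.065), over a range of 0.01 to 0.17, and that of Solyc03g093080.ITAG4.0 in 3 of 15, with 0.11 without ammonium replicate 1 and 0.1 without iron-alone replicate 3.

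Solyc02g071070.ITAG4.0 was the most changed of 4 neighbours on chromosome 2, at 18.5, 26.0 and 14.9 FPKM with ammonium, against 60.3, 63.1 and 66.2 FPKM with iron alone (log2 change -1.66, standard error 0.18, adjusted p = 0.00011). Solyc02g071090.ITAG4.0 fell as well (log2 change -0.88, standard error 0.10, adjusted p = 0.00015), and so did Solyc02g071080.ITAG4.0 (log2 change -1.03, adjusted p = 0.015). With nitrate and urea Solyc02g071070.ITAG4.0 was close to its ammonium level, at 17.2 ± 2.29 and 21.2 ± 4.25 FPKM (SD, n = 3 each). Its differences between ammonium and these forms missed the threshold (adjusted p = 0.69 and 0.76, standard errors 0.18), as did those of Solyc02g071080.ITAG4.0 (adjusted p = 0.96 and 0.74, standard errors 0.25). Nitrate held Solyc02g071090.ITAG4.0 lower still than ammonium, at 6.40 ± 0.90 FPKM against 10.3 ± 1.15 with ammonium (log2 difference 0.61, ammonium minus nitrate, adjusted p = 0.0022, SD, n = 3 each). The fourth gene, Solyc02g071060.ITAG4.0, lost its call in 11 of 15 alternatives (adjusted p 0.03 to 0.19), and Solyc02g071080.ITAG4.0 lost it without ammonium replicate 2 (0.054).

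The last of these runs was on chromosome 3 too. Solyc03g119600.1.ITAG4.0 stood at 51.4, 58.7 and 42.6 FPKM with ammonium, against 116, 81.3 and 142 FPKM with iron alone (log2 change -1.11, standard error 0.20, adjusted p = 0.0026). Solyc03g119590.1.ITAG4.0 stood at 6.41, 5.29 and 0.956 FPKM with ammonium, against 13.8, 21.6 and 16.9 FPKM with iron alone (log2 change -2.01, standard error 0.47, adjusted p = 0.012). Solyc03g119580.1.ITAG4.0 and Solyc03g119610.1.ITAG4.0 also fell, by log2 changes of -0.99 (adjusted p = 0.0053) and -0.66 (adjusted p = 0.035). Levels of Solyc03g119580.1.ITAG4.0 were low, at 0.628, 0.42 and 0.468 FPKM with ammonium, against 1.9, 2.37 and 1.7 FPKM with iron alone. The call of Solyc03g119590.1.ITAG4.0 was lost with only the 6 libraries compared (adjusted p = 0.057), and that of Solyc03g119610.1.ITAG4.0 in 7 of 15 alternatives (adjusted p 0.022 to 0.13).

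**Figure D4:**
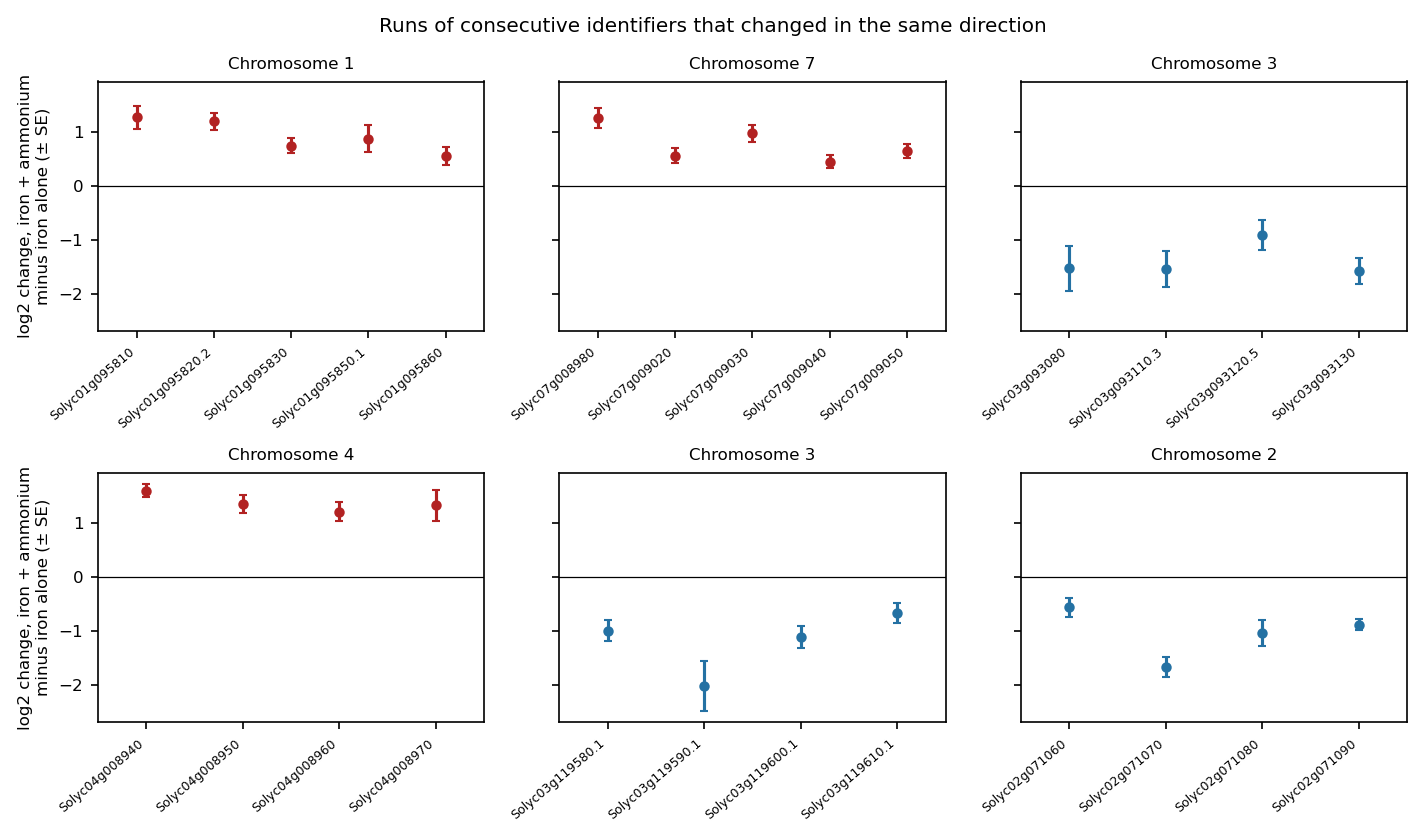
Log2 change, ammonium minus iron alone, with its standard error, for each gene of the 6 longest runs of neighbouring identifiers called in the same direction. Genes stand in identifier order, the vertical axis is shared, and labels leave out the suffix ITAG4.0. The 4 genes on chromosome 4 lie between 1.21 and 1.60, the 5 on chromosome 7 between 0.45 and 1.25.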

How the data were processed

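Values were FPKM per gene in 1 table, as deposited by the authors. The submitters' processing notes name HISAT2, an aligner. The sources used here state neither its version nor a genome build nor how FPKM was computed. FPKM corrects for length and depth but not for RNA composition. Columns were assigned by library name, and 0 pairs of libraries were identical.

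Values were transformed as log2(FPKM + 1). With limma 3.58.1 (R 4.3.3, eBayes with trend), each regime had its own mean and all 15 libraries shared 1 estimate of the spread. P-values were two-sided and Benjamini-Hochberg adjusted over 18889 genes, and a gene was called at an adjusted p under 0.05. Relative depth came from ratios of low FPKM values (under 0.5), and 103 of 105 pairs of libraries came within 0.05 (log2) of a single depth for each library. Absolute depth is unknown, so no counting interval is given.

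Named genes were called genes whose groups did not overlap and whose mean reached 5 FPKM in 1 group, except members of runs, which had only to be called. They were the 12 largest changes each way, then 3 each way by smallest p, 3 each way by level among those changed at least 2-fold, 5 each way also called against the mean of nitrate and urea, and the 6 longest runs of called neighbours. The comparison and lists were chosen with earlier results of these data known. Pathway lists could not be matched and were not run. Alternatives changed the pseudocount (to 0.1), the filter (none, or a mean of 5 FPKM or more), the scaling (size factors, quantile, equal FPKM totals), the variance trend, the libraries fitted (those compared alone, or each left out in turn) and the use of replicate numbers as a block.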

Additional observations from a re-analysis of the deposited data

How the results depend on the processing

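With only the groups compared in the fit, 1318 genes changed (565 rising and 753 falling) and 370 differed between ammonium and the mean of nitrate and urea. Over single libraries left out, genes changed numbered 1618 to 2429, rising genes 688 to 1104, falling genes 859 to 1325, genes rising at least 2-fold 135 to 203, genes falling at least 2-fold 196 to 293, and genes differing from the mean of nitrate and urea 274 to 782. The other alternatives left these counts within 1.5 times. Rising and falling genes numbered 1460 and 1222 after quantile normalization and 1268 and 1490 with equal FPKM totals. The replicate number as a block gave 2556 genes changed (1163 rising and 1393 falling), 171 and 238 by at least 2-fold, and 680 for the other forms. Same-numbered ammonium and iron-alone libraries deviated together with correlations of 0.031, -0.016 and 0.067, and of the 3 ammonium libraries replicate 3 alone correlated best with its own number, so the numbers were not taken to pair the samples. Of 59 named genes, 44 kept their call against iron alone in every alternative and 15 lost it in at least 1. No direction of a named gene reversed in the alternatives run. Absolute depth is unknown, so what it limits cannot be given.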

Other observations

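The calls were spread over all chromosomes. Over the 12 numbered chromosomes the share of tested genes called was 11.4% to 15.2%, lowest on chromosome 10 (143 of 1254) and highest on chromosome 7 (217 of 1424), beside 13.9% over all genes tested. Of 50 tested genes not placed on a chromosome, 1 was called. Identifiers with a version number before the suffix were called in 407 of 3329 cases (12.2%), and those without one in 2214 of 15560 (14.2%).

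The largest fitted change of all tested genes did not pass the test. Solyc04g009870.1.ITAG4.0, chosen after its values were seen, stood at 152, 58.1 and 109 FPKM with ammonium and was listed at 0 in the 3 iron-alone libraries (log2 change 6.64, standard error 2.42, adjusted p = 0.088). It was listed at 222, 0 and 0 FPKM with nitrate, at 0, 321 and 0 with urea and at 49.9, 143 and 0 in control roots.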
